A study of Oryza sativa with 16 samples.

Results

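Regions of rice chromatin that appeared open after 30 min of heat and in no other condition were examined. FAIRE-seq recovers formaldehyde-crosslinked, sheared DNA that is free of protein, so that enriched stretches mark open chromatin. The samples were whole 14-day-old seedlings of the Japonica cultivar Nipponbare, and 2 biological replicates were made for each of 7 conditions. Heat was given at 42 °C for 30 min or 3 h, cold at 4 °C for 12 h or 24 h, and salt as 250 mM NaCl for 2 h or 6 h, while control seedlings stayed at 28 °C. For each condition a single list of peaks covers both replicates. Peaks of all 7 lists that overlapped or touched were merged into 119009 union regions. The regions were chosen by the presence and absence of called peaks in these same lists: a union region was taken when it held a peak of heat 30 min and none of the other 6 lists. There were 2584 such regions, which is 2.17% of the union regions.

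Open chromatin in plants lies mostly at promoters, where nucleosomes are displaced around transcription start sites, and at enhancers farther away. Heat acts on it quickly. In plants, heat stress transcription factors bind short repeated motifs, the heat shock elements, upstream of chaperone genes, and these genes are induced within minutes of a rise in temperature. Which genes lie beside the regions described here was not analysed, since no gene annotation or genome sequence of the build of the peak lists, IRGSP 1.0, was used. The regions are therefore given by position, and no sequence is shown.

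Every one of the 2584 regions consisted of 1 heat 30 min peak, and regions found only in any other list also held 1 peak each. The 2584 regions made up 2.39% of the 108147 peaks of the list. The 95% Wilson interval ran from 2.30% to 2.48%, and the SD over the 12 chromosomes was 0.165. Together they covered 753.2 kb, or 0.791% of the bases under heat 30 min peaks. Their share was thus smaller in bases than in number. Intervals here cover counting error only. With 1 list per condition, replicate error is unknown for every value and no test between conditions could be run. The lists carry no read totals. The mapped reads that the study gives for each library were not used here, and the part of depth in these counts was not tested.

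The number of regions found in a single list differed widely between conditions. Against the 2584 regions of heat 30 min (2.17% of the union regions), 7443 (6.25%) were found only after cold 12 h, 761 (0.639%) only after salt 6 h, 668 (0.561%) only after heat 3 h, 445 (0.374%) only after cold 24 h, 391 (0.329%) only after salt 2 h and 1033 (0.868%) only in the control. Heat 30 min therefore ranked behind cold 12 h and ahead of the other lists. These were also the longest lists, with 108147 peaks for heat 30 min and 110010 for cold 12 h, and the other 5 held between 87437 and 102210. When the 87437 peaks of highest fold enrichment were taken from every list, 2370 regions were found only after heat 30 min, against 4073 only after cold 12 h, 2484 only after salt 6 h, 1107 only after heat 3 h and 1225 only in the control. The rank of heat 30 min thus differed between the settings, since salt 6 h then stood above it. As the shortest list, salt 6 h kept all its peaks, down to a fold enrichment of 1.29, whereas heat 30 min was cut at 1.80. Of the 2584 regions, 1359 had peaks too weak to enter the shortened list. The other 1225 (47.4%) remained by construction, since shortening the other lists only takes peaks away. They made up 51.7% of the 2370 regions, and the rest had been outside the set with the full lists.

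**Figure D1:**
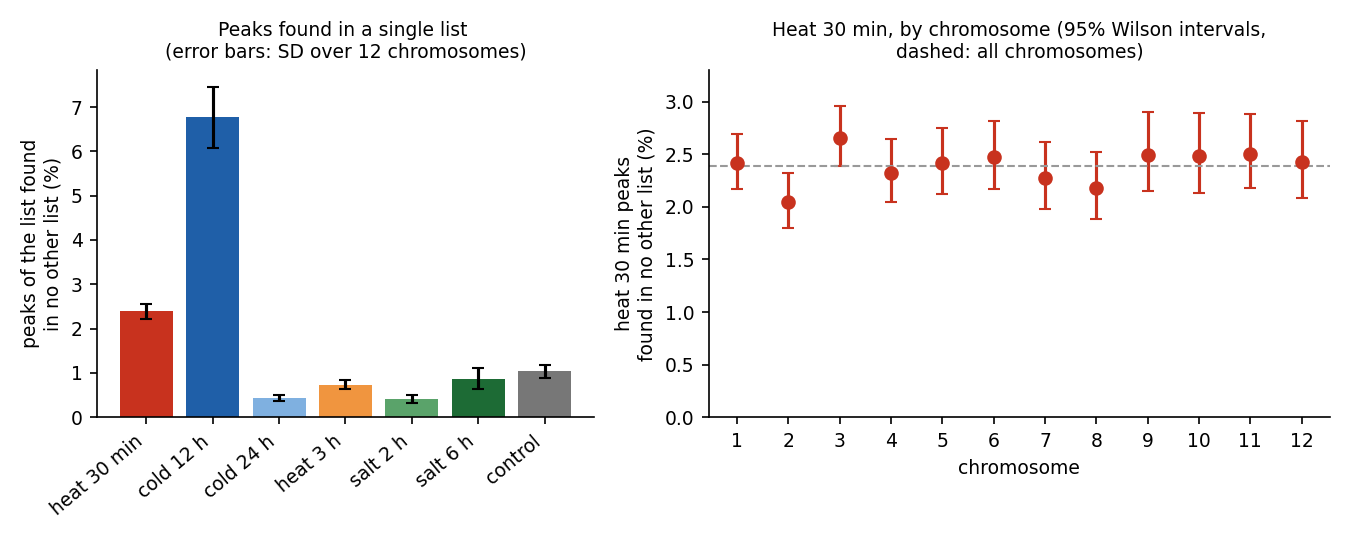
Left, share of the peaks of each list (in %, y axis) found in no other list, with error bars for the SD over 12 chromosomes: 2.39% for heat 30 min, 6.77% for cold 12 h and 1.04% for the control. Right, the heat 30 min share (in %) on each chromosome with 95% Wilson intervals; it ran from 2.04% on chromosome 2 to 2.66% on chromosome 3.

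The regions were narrow. Their median width was 227 bp, with middle quartiles of 208 and 320 bp, whereas the other heat 30 min peaks had a median of 694 bp. The narrowest had 200 bp, which is the smallest width in all 7 lists, and 232 regions had exactly this width. Only 263 regions (10.2%) reached 500 bp and 5 reached 1000 bp, against 63.5% and 31.8% of all peaks of the list. Fold enrichment, the ratio of reads in a peak to the local background given by MACS2, had a median of 1.77 in the regions and 2.16 in the other peaks of the list. It ran from 1.28 to 2.95, and the median stood at percentile 17.3 of the list. Width and strength come from the same peak calls as the rule and are given as a description.

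Width separated stronger from weaker regions. The 1646 regions under 250 bp (63.7%) had a median fold enrichment of 1.91 and a median −log10 q of 4.74, and 759 of them (46.1%) reached a −log10 q of 5. The 481 regions of 250 to under 400 bp had medians of 1.56 and 2.30, and 57 of them reached that limit. The 457 regions of 400 bp and more had medians of 1.57 and 2.20, and 5 of them did. Narrow regions were therefore the sharper ones, and wide regions were shallow. Across the 2584 regions, width and fold enrichment had a Spearman rho of -0.486, but in the whole heat 30 min list rho was 0.210, and among the 45428 other peaks of the list under 600 bp it was 0.156. The sign was also negative in regions found only after cold 12 h (-0.231, n = 7443) and only after heat 3 h (-0.356, n = 668). All points of such a correlation share the same pair of libraries.

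**Figure D2:**
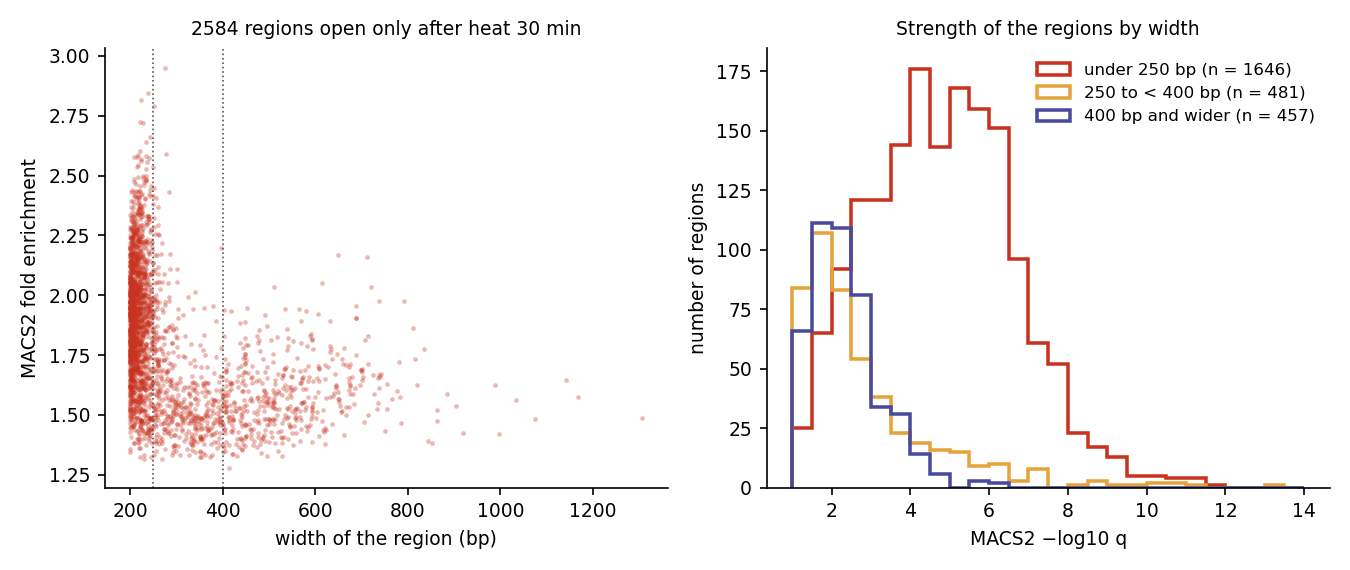
Left, width (bp, x axis) against MACS2 fold enrichment (y axis) of the 2584 regions, 1 point per region, with dotted lines at 250 and 400 bp. Right, number of regions by −log10 q (x axis) in 3 width groups: the 1646 regions under 250 bp had a median of 4.74, and the 457 regions of 400 bp and more had a median of 2.20.

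The share of peaks found in no other list was highest among narrow peaks. The rule leaves a peak out at 1 bp of overlap, which a wider peak meets more readily. How much of the fall with width comes from the rule was not tested. Of the 10956 heat 30 min peaks under 250 bp, 15.0% (interval 14.4% to 15.7%) were in no other list. The share was 25.1% for cold 12 h, 4.48% for heat 3 h and 6.23% for the control. Among peaks of 250 to under 300 bp the share was 3.20% for heat 30 min, against 14.4% for cold 12 h, 1.39% for heat 3 h and 1.49% for the control. At 400 to under 600 bp it was 1.91% for heat 30 min, against 8.44% for cold 12 h, 0.382% for heat 3 h and 0.681% for the control. The heat 30 min share was thus between that of cold 12 h and those of heat 3 h and the control at each of these widths. The cold 12 h regions were of another make. Only 33.6% of them were under 250 bp and 6.01% reached a −log10 q of 5, against 63.7% and 31.8% of the heat 30 min regions. In the other 5 sets, heat 3 h among them with 62.4%, regions under 250 bp made up 61.5% to 66.2%, so that cold 12 h had the lowest share of the 7 sets and the others were near heat 30 min. Regions that reached a −log10 q of 5 made up 32.0% for heat 3 h, 23.0% for salt 2 h, 19.1% for salt 6 h, 12.1% for cold 24 h and 14.2% for the control. In the whole lists, peaks under 250 bp made up 10.1% for heat 30 min, 9.07% for cold 12 h and 10.2% for heat 3 h, and those that reached a −log10 q of 5 made up 72.6%, 59.3% and 70.3% in the same order. The whole cold 12 h list was thus also the weaker one by −log10 q, a value that grows with depth.

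**Figure D3:**
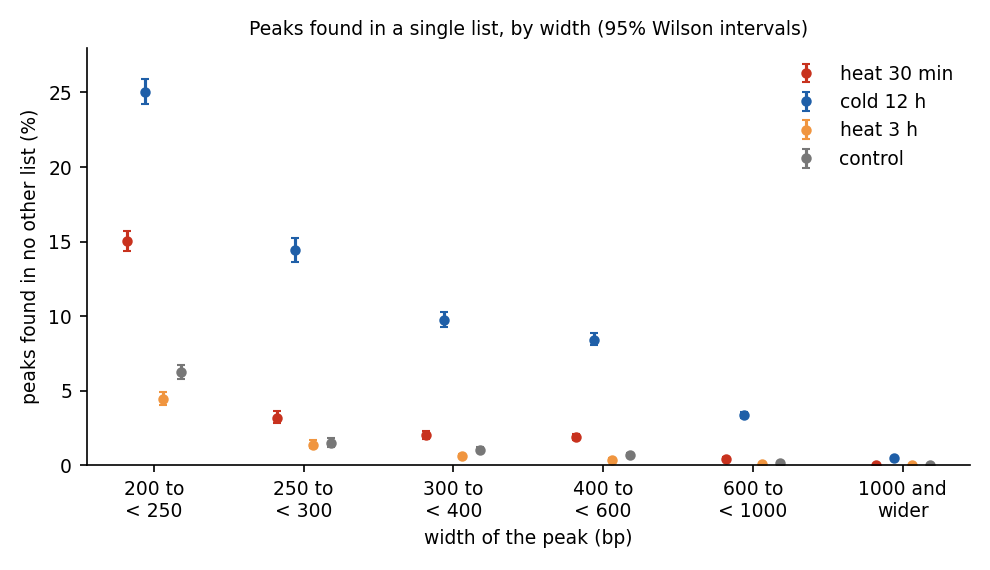
Share of peaks found in no other list (in %, y axis) by peak width (bp, x axis) for 4 lists, with 95% Wilson intervals. For peaks of 200 to under 250 bp it was 15.0% for heat 30 min, 25.1% for cold 12 h, 4.48% for heat 3 h and 6.23% for the control, and it was lower at every larger width in all 4 lists.

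Few of the regions were strong within their own list. None was among the 10000 heat 30 min peaks of highest fold enrichment and 6 were among the highest 20000, which begin at a fold enrichment of 2.67. The share of peaks in no other list was 9.10% in the weakest decile of the list, 3.03% in the fourth, 1.60% in the sixth, and 0.00925% (1 peak) in the strongest. In all, 624 regions had a fold enrichment of at least 2 and 23 of at least 2.5. At the weak end, 458 regions had a −log10 q under 2. The stronger regions thus form a minor part.

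The 10 regions of highest fold enrichment lay on 6 chromosomes and were all between 221 and 278 bp wide. The strongest was at chr6:15171964-15172238, with a fold enrichment of 2.95 and a −log10 q of 13.1, at rank 10600 of the list. Its nearest cold 12 h peak was 2051 bp away, its nearest heat 3 h peak 4747 bp and its nearest control peak 6046 bp. No peak of another list lay nearer than the cold 12 h peak, and the nearest peak of its own list was at 4797 bp. The next was at chr7:26274885-26275123, with a fold enrichment of 2.84 and a −log10 q of 12.0. There the nearest peaks of the other 6 lists all lay between 969 and 1001 bp away. Whether these peaks belong to the same open region was not looked up. At chr5:24758777-24759000 the fold enrichment was 2.81, with the other lists at 1348 to 1440 bp. At chr1:5631072-5631322 it was 2.79, with the other lists at 745 to 950 bp.

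Of the remaining 6, the region at chr7:3545791-3546011 had a fold enrichment of 2.72, with the nearest heat 3 h peak at 822 bp and the nearest cold 12 h peak at 1462 bp. The region at chr6:25400499-25400726 had 2.72, with a cold 12 h peak at 712 bp. The region at chr4:19506126-19506367 had 2.66, with a cold 12 h peak at 791 bp. Chromosome 12 held a pair of them, at chr12:2471406-2471639 with 2.64 and at chr12:9270681-9270902 with 2.60. The last, at chr5:24161275-24161552, had a fold enrichment of 2.59 and lay 813 bp from a salt 2 h peak. In 7 of these 10 regions an open region of another list was found within 1000 bp, beside 67.6% of all 2584.

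The widest regions were weak. The widest, at chr2:31531113-31532419, measured 1307 bp with a fold enrichment of 1.49 and a −log10 q of 2.19. It was followed by chr3:19633362-19634530 (1169 bp, fold enrichment 1.58), chr10:22049513-22050655 (1143 bp, 1.65), chr4:27182181-27183256 (1076 bp, 1.48) and chr8:26550624-26551657 (1034 bp, 1.56). By fold enrichment, the 5 ranked between 98779 and 106146 among the 108147 peaks.

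Most regions lay close to chromatin that was open in other conditions, and overlap or contact with it was excluded by the rule. The median distance to the nearest peak of any other list was 742.5 bp, with quartiles of 516 and 1145 bp. Within 1000 bp of such a peak were 1748 regions (67.6%), within 2000 bp 2449 (94.8%), and beyond 10 kb 3. In the regions found only in another list, the share within 1000 bp ran from 48.4% for salt 6 h to 66.2% for salt 2 h. No distance for all heat 30 min peaks or for random positions was set beside these values, so closeness is not read as particular to the regions. Within 400 bp lay 156 regions (6.04%), and within 200 bp 24 (0.929%). Within the heat 30 min list itself, the nearest peak was at a median of 847 bp and never nearer than 401 bp. The scarcity of short gaps is therefore not read as a trait of the regions. The corresponding median distance to any other list was 870 bp for the regions of cold 12 h alone, 762 bp for those of cold 24 h alone, 818.5 bp for those of heat 3 h alone, 770 bp for those of salt 2 h alone, 1043 bp for those of salt 6 h alone and 787 bp for those of the control alone. The 95% intervals for heat 30 min (719 to 774 bp), cold 24 h (704 to 814 bp), salt 2 h (713 to 822 bp), heat 3 h (763 to 890 bp) and the control (742 to 830 bp) overlapped. They cover counting error over the regions of 1 list each, and are no test between conditions.

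Set against single lists, the median distance was 836.5 bp to the nearest cold 12 h peak, 934 bp to cold 24 h, 999.5 bp to salt 2 h, 1095 bp to heat 3 h, 1149.5 bp to salt 6 h and 970.5 bp to the control. These medians rose in the order in which the lists grow shorter, from 110010 peaks for cold 12 h to 87437 for salt 6 h. Heat 3 h, with 91083 peaks, kept its place in this order, so the medians cannot tell the treatment from list length. A cold 12 h peak was the closest, ties included, in 1073 regions (41.5%), a control peak in 500 (19.3%) and a heat 3 h peak in 176 (6.81%). These counts were not adjusted for list length. Median fold enrichment was 1.75 in the 1748 regions within 1000 bp of another list and 1.82 in the 836 beyond it.

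**Figure D4:**
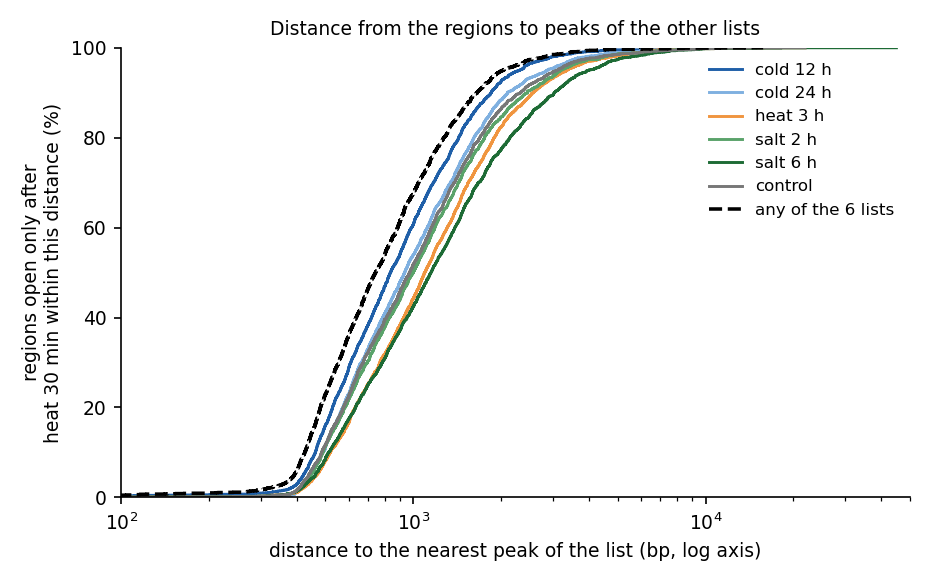
Cumulative share of the 2584 regions (in %, y axis) by distance to the nearest peak of each other list (bp, log x axis), with the nearest of all 6 lists dashed. The medians run from 836.5 bp for cold 12 h to 1149.5 bp for salt 6 h, and few regions lie within 400 bp of any list.

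A few regions stood far from all other open chromatin. The most isolated was at chr11:4547810-4548017, 15745 bp from the nearest cold 12 h peak and 15767 bp from its nearest heat 30 min neighbour. With a fold enrichment of 2.58 and a −log10 q of 8.93 it was also one of the stronger regions. The others were chr11:19839244-19839471, at 13577 bp with a fold enrichment of 1.89, chr9:11676242-11676444, at 11176 bp with 1.86, chr4:4488409-4488630, at 8375 bp with 1.91, and chr10:23204125-23204331, at 7914 bp with 2.25. All 5 were 203 to 228 bp wide.

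The 5 regions closest to another list had fold enrichments on either side of the median of 1.77. The region at chr4:10052604-10052856 ended 3 bp from a salt 6 h peak and had a fold enrichment of 1.39. The region at chr6:2805679-2805924 lay 4 bp from a cold 12 h peak, with 1.80, and the one at chr5:9816484-9816753 lay 5 bp from a control peak, with 1.62. The region at chr2:35795287-35795778 lay 19 bp from a cold 12 h peak, with 1.92, and the one at chr1:27872023-27872242 lay 21 bp from a salt 2 h peak, with 1.36. Just outside the rule, the heat 30 min peak at chr11:18065733-18066012 overlapped a cold 12 h peak by 2 bp and had a fold enrichment of 1.49. Those at chr9:14803799-14804250, with 1.94, and at chr1:33198596-33198903, with 1.43, overlapped a control peak and a cold 12 h peak by 3 bp. In all, 5 regions lay within 50 bp of failing the rule, and 25 heat 30 min peaks failed it by an overlap of 50 bp or less. The number of regions therefore hardly rests on such cases.

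The chromatin next to the regions was mostly open in every condition. Of the 5167 neighbours, where a union region next to several of the regions counts once for each, 3275 (63.4%) had a peak in all 7 lists, against 57.4% of the neighbours of all union regions. For the regions of cold 12 h alone this share was 52.5%, for those of heat 3 h alone 60.3% and for those of the control alone 57.6%. Of the 2583 regions with a neighbour on each side, both were open in all lists for 1056 (40.9%) and neither for 364 (14.1%). Among all union regions these shares were 33.2% and 18.4%. For both neighbours the share was 38.8% for heat 3 h alone, 35.2% for the control alone and 27.8% for cold 12 h alone. Each counted once, the neighbours of the heat 30 min regions open in all lists were 3239 union regions, and they were also long. They had a median of 1090 bp under heat 30 min peaks, against 972 bp for all 68348 regions of this kind, and the same held in the control list, with 1004 bp against 887 bp. Their length in the heat 30 min list exceeded that in the control by a median of 24 bp, against 25 bp for all regions of the kind. Long neighbours were thus seen at these places in both lists. A heat 30 min peak that had spread from a neighbour into a region would have taken that region out of the set. These lengths therefore cannot show whether neighbours lengthened after heat 30 min.

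Pairs of neighbouring regions were few in a set that makes up 2.17% of the union regions, and no rate for a random order was computed. Between 2508 of the heat 30 min regions and the next such region lay at least 1 other union region. Another 38 pairs followed each other directly, with no run of 3. An example of a pair was at chr12:3021076-3022566, where the regions had fold enrichments of 2.18 and 2.22.

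Regions were found on all 12 chromosomes, in numbers from 162 on chromosome 10 to 323 on chromosome 1. As a share of heat 30 min peaks, chromosome 3 had the highest value with 2.66% (319 regions, interval 2.38% to 2.96%) and chromosome 2 the lowest with 2.04% (227 regions, 1.80% to 2.33%). These intervals did not overlap, but the other 10 chromosomes ran from 2.18% to 2.51% with intervals that overlapped one another. Median width per chromosome was between 221 and 233.5 bp, and median fold enrichment between 1.69 and 1.88.

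Along the chromosomes, the regions were most frequent where open chromatin was dense. The 367 whole 1 Mb windows held a median of 7 regions, 1 window held none, and the most in a window was 17. Windows were ordered by their number of union regions. The 91 densest, with 355 to 416 union regions each, held 33.9% of the regions (interval 32.1% to 35.8%), against 29.0% of all union regions. The 92 windows with the fewest, 134 to 290 each, held 16.7% (15.3% to 18.2%), against 19.4% of all union regions. The share in the densest windows was above that of all union regions on 11 of 12 chromosomes, the exception being chromosome 12, and the share in the poorest windows was below it on 10. As a share of the union regions with a heat 30 min peak, the regions made up 2.87% in the densest windows and 2.27% in the poorest.

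The sets of other lists were placed differently. In the poorest windows lay 16.7% of the heat 30 min regions, against 20.6% of those of cold 12 h alone, 23.0% of those of heat 3 h alone, 31.5% of those of salt 6 h alone and 24.2% of those of the control alone. In the outer 10% of the length at each chromosome end lay 24.0% of the heat 30 min regions (interval 22.4% to 25.7%), against 20.7% of all union regions, 18.9% of the regions of heat 3 h alone and 20.7% of those of the control alone. The share exceeded that of all union regions on 11 of 12 chromosomes, and the widest gap was on chromosome 5, with 34.1% against 21.2%. The middle 20% held 16.4% of the heat 30 min regions, against 24.9% of those of heat 3 h alone and 19.1% of all union regions. Windows and chromosomes share the same libraries, so these counts are no replicate check and no test was run on them.

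**Figure D5:**
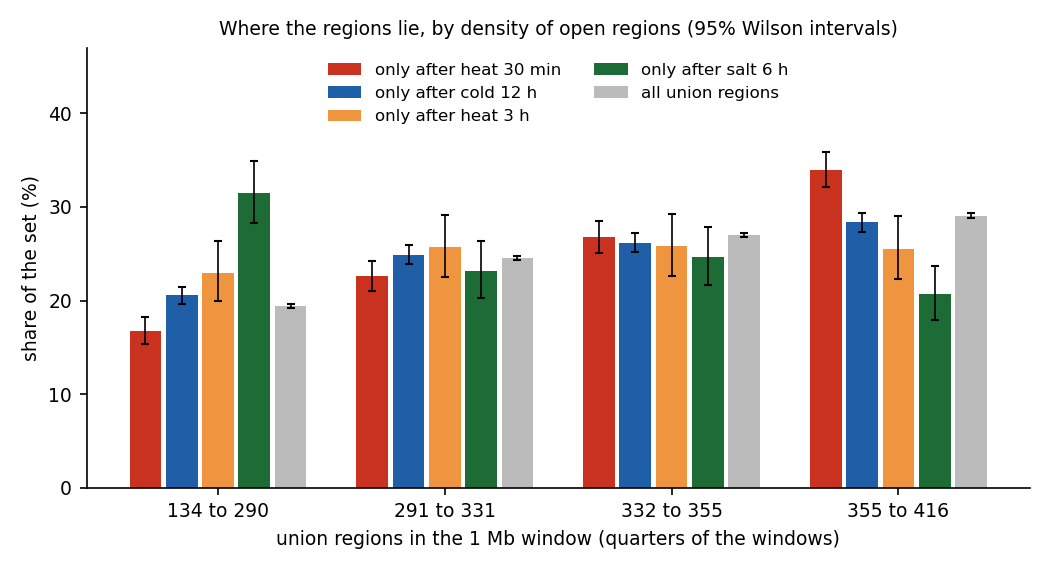
Share of 4 sets of regions found in a single list, and of all union regions (in %, y axis), by the number of union regions in the 1 Mb window (x axis, 4 groups of windows from the poorest to the densest), with 95% Wilson intervals. The poorest windows held 16.7% and the densest 33.9% of the heat 30 min regions, while for the salt 6 h regions these shares were 31.5% and 20.7%.

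The windows with the most regions were on chromosomes 3, 5 and 9. On chromosome 3, the window from 31 to 32 Mb held 17 regions among 361 union regions, and those from 30 to 31 Mb and from 1 to 2 Mb held 16 each. Chromosome 9 had 17 regions from 20 to 21 Mb, and chromosome 5 had 16 from 28 to 29 Mb.

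Which list kept a heat 30 min region out of the set was also counted. Regions with peaks of heat 30 min and exactly 1 other list were most frequent with cold 12 h, at 4613, which is 4.45% of the union regions with a cold 12 h peak. For heat 3 h the number was 56 (0.0677% of the regions of that list), for cold 24 h 376 (0.398%), for salt 2 h 160 (0.178%), for salt 6 h 46 (0.0571%), and for the control 467 (0.506%). The lowest numbers belonged to the shortest lists, salt 6 h and heat 3 h. With lists of equal length, a setting chosen for these counts after the data were seen, the number was 2323 for cold 12 h (2.77%), 139 for heat 3 h (0.173%), 411 for cold 24 h (0.498%), 165 for salt 2 h (0.200%), 61 for salt 6 h (0.0752%) and 445 for the control (0.540%). The counts for cold 12 h and heat 3 h thus changed most between the settings, and the count for heat 3 h was in both settings above that of salt 6 h and below those of the other 4 lists. When the cold 12 h list was left out, 7765 regions were open only after heat 30 min, against 2584 with all lists. Leaving out the control gave 3073, and leaving out heat 3 h gave 2647. Of the single lists, cold 12 h thus kept the most regions out of the set. It is also the longest list, and at equal length its count of regions shared with heat 30 min alone was still above those of the other 5 lists.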

How the data were processed

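FAIRE-seq reads of 14 libraries in 7 conditions had been aligned by the authors to IRGSP 1.0 with Bowtie2. Reads at organelle insertion sites, with a mapping score under 10 or duplicated were removed, broad peaks were called with MACS2, and peaks under 1 RPM in a replicate were dropped. How replicates were combined is not given in the sources used here. The deposited values are fold enrichment, a ratio to local background that the authors obtained from MACS2, and −log10 of the q-value of each peak, as deposited by the authors. They depend on the depth of a library and were ranked only within a list. Fixed −log10 q limits of 2 and 5 were also applied to several lists, and the shares that reach them depend on depth as well. Deposited p-values and scores were not used.

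Peaks were merged with 1 bp of overlap or contact as the rule. Distances are gaps between ends, coordinates count from 1, and windows of 1 Mb leave out the last of each chromosome. Regions named are the 10 of highest fold enrichment, the 5 widest, the 5 farthest, and those nearest to the limit of the rule on either side. A pair of neighbouring regions and the densest windows were chosen after their values were seen. Members and measures were chosen with earlier results of these data known. Merging and distances were tested on simulated data. Alternatives were stricter −log10 q, equal list lengths, other merging distances, windows and limits, and each list left out. Gene annotation, sequence content and 2 RNA-seq samples planned or listed were not analysed here. Python 3.11.15, numpy 2.4.6, pandas 2.3.3, scipy 1.17.1 and matplotlib 3.10.9 were used.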

Additional observations from a re-analysis of the deposited data

How the results depend on the processing

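Of 9 results, merging peaks up to 200 bp apart changed none beyond its interval or 1.5 times, and 2560 regions remained. With a −log10 q of at least 2 in all 7 lists there were 2967 regions, of which 2126 belonged to the 2584. Their median width was 230 bp, median fold enrichment 1.79, median distance 807 bp, share of heat 30 min peaks 2.83% and share within 1000 bp of another list 63.6%. With this limit on the heat 30 min list alone, the median width was 220 bp, the fold enrichment 1.85 and the share of peaks 2.03%. With lists of equal length, the fold enrichment was 1.94, the distance 863.5 bp, the share of peaks 2.71% and the share within 1000 bp 59.2%. Merging peaks up to 1000 bp apart left 806 regions by construction, which covered 233241 bases, had a median width of 224 bp, a fold enrichment of 1.82 and a distance of 1405 bp, and made up 0.750% of the peaks. Of these, 2 were among the 20000 strongest peaks, 0% lay within 1000 bp of another list and 18.8% in the poorest windows. Among the 10000 strongest peaks there were 0 regions, and 22.9% lay within 500 bp and 94.8% within 2000 bp of another list. After the data were seen, a −log10 q of at least 2 was set for the other 6 lists only. This gave 3882 regions of 1288360 bases, a median width of 250 bp, a fold enrichment of 1.69, a distance of 802 bp, 3.59% of the peaks and 63.9% within 1000 bp. Leaving out the cold 12 h list, also a later choice, gave 7765 regions. The share in the poorest windows kept within its interval in all settings but the 1000 bp merging. No paired analysis was possible because each condition has 1 list for both replicates, and no replicate could be left out for the same reason.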
